A study of Mus musculus with 12 samples.

Results

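The genes described are 10 markers of endoplasmic reticulum (ER) stress and of the integrated stress response, Sdf2l1, Hspa5, Hsp90b1, Pdia4, Dnajb9, Xbp1, Atf4, Ddit3, Trib3 and Gdf15, followed in mouse skin wounds with and without capsaicin (CAP). They were taken by symbol from tables of 55487 genes. The 10 symbols gave 11 rows, since Ddit3 is listed under 2 identifiers. The row ENSMUSG00000116429 held no more than 0.15 TPM in any library and failed the filter on low values. The other 10 rows passed it in every comparison. TPM states a gene's transcripts as a share of all transcripts in a library, corrected for gene length, so that levels can be compared between genes.

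The wounds came from male C57BL/6JNarl mice, 6 weeks old, with 2 full-thickness punch wounds of 6 mm in diameter on the back. In the sham group, 200 µL of Pluronic F127 gel (25%) was placed on the wounds once daily, and in the CAP group the same gel carried 10 µM CAP, the pungent agonist of the ion channel TRPV1. All groups therefore received the gel. Wounds were sampled on day 3 and day 6, with 3 libraries in each of the 4 groups. The labels do not say whether libraries shared a mouse. The number n therefore counts libraries, and the p-values measure the spread between libraries, part of which may be technical.

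When unfolded proteins build up in the ER, the sensors ATF6, IRE1 and PERK start the unfolded protein response. ATF6 and XBP1, whose mRNA is spliced by IRE1, turn on the genes of ER chaperones and of protein export and degradation. PERK phosphorylates the translation factor eIF2α, a step shared with the other kinases of the integrated stress response, which slows protein synthesis while letting ATF4 be translated, and ATF4 in turn raises CHOP (the product of Ddit3), TRIB3 and other targets. In healing skin, secretory cells such as fibroblasts that lay down collagen depend on the folding machinery of the ER. A gene-level TPM does not separate spliced from unspliced Xbp1 mRNA and does not read the translation of Atf4 or the phosphorylation of eIF2α.

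ATF6 and XBP1 read the ER stress response element (ERSE) in chaperone promoters. Its exact classical sequence was looked for next to the start sites of the 10 genes. It was searched on both strands as CCAAT and CCACG separated by 9 bases, in windows from 250 bases before to 50 bases after each start (RefSeq, GRCm38.p6). It was found in 39 of 32851 promoters (0.119%). Among the 11 promoters of the 10 genes (Gdf15 has 2), it was found in Hspa5 once and in Hsp90b1 at 2 places. The 3 matches are shown with 5 bases on each side, read on the strand on which the element runs, with both blocks of the element in capitals. The Hspa5 element lies 65 to 47 bases before the start at chr2:34772020-34772048 (+), inside the gene span of the tables, which begins further upstream than the RefSeq start. Those of Hsp90b1 lie 212 to 194 bases before the start at chr10:86705633-86705661 (-) and 107 to 89 bases before it at chr10:86705528-86705556 (+), the latter on the strand opposite to the gene.
Hspa5: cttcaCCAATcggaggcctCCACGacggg
Hsp90b1, distal: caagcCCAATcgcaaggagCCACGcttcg
Hsp90b1, proximal: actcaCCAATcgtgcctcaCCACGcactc
The element ERSE-II (ATTGG and CCACG separated by 1 base, in 0.0365% of promoters) and the XBP1 element TGACGTGG (0.676%) matched none of the 11 promoters. The amino acid response element bound by ATF4, searched as TGATGNAA, was found in 3.97% of all promoters and in that of Trib3, 15 to 22 bases after the start on the opposite strand. These matches describe letters in the windows and do not show binding. Copies that differ in a block or lie outside the windows were not searched, so a gene without a match may still carry one.

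The libraries held between 18533 and 19325 genes at 0.3 TPM or more, and their depth is unknown. The CAP day 6 library of replicate 2 stood apart. Its mean correlation with the other libraries was 0.955, against 0.971 to 0.976 elsewhere, and the keratins Krt1 and Krt10 of differentiated epidermis made up 7.05% of its TPM. They made up 2.97% and 3.59% in the other CAP libraries of day 6 and 0.732% to 1.94% in the remaining 9 libraries. Within the CAP group of day 6, the mean correlation of replicate 2 (0.969) was close to that of replicate 3 (0.97), beside 0.977 for replicate 1. The median log2 difference of all genes between CAP and sham at day 6 was -0.12, and -0.02 once the libraries were scaled by the median ratio of their genes. With the scaling, the genes past the threshold at day 6 changed from 268 higher and 429 lower to 388 higher and 303 lower. The values at day 6 are given with the scaling and without replicate 2 where they matter.

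The chaperone genes Hsp90b1 and Hspa5 were the most abundant of the 10. Hsp90b1, which encodes the ER-resident HSP90 protein GRP94 (ENSMUSG00000020048, chr10:86690209-86705509, - strand), ranged from 296 to 660 TPM over the 12 libraries. Hspa5 (ENSMUSG00000026864, chr2:34771970-34777547, + strand), which encodes the chaperone BiP that holds the stress sensors inactive, ranged from 200 to 409 TPM. By group means, the order Hsp90b1, Hspa5, Atf4 stood at the top in all 4 groups. In the sham wounds, Atf4 overlapped the next gene in that order, Pdia4 on day 3 and Xbp1 on day 6. Atf4 and Hspa5 overlapped in the CAP wounds of day 6, where Hspa5 was above Atf4 in 2 of 3 libraries, and in no other group. Pdia4 and Xbp1 overlapped in every group and exchanged places. Gdf15 was the lowest of the 10 in the sham wounds of day 3 (5.58 TPM) and in the CAP wounds of day 6 (10.5 TPM), where it overlapped Trib3. It also varied most, by 7.60-fold between its lowest and highest library, while Atf4 varied by 1.34-fold.

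**Figure D1:**
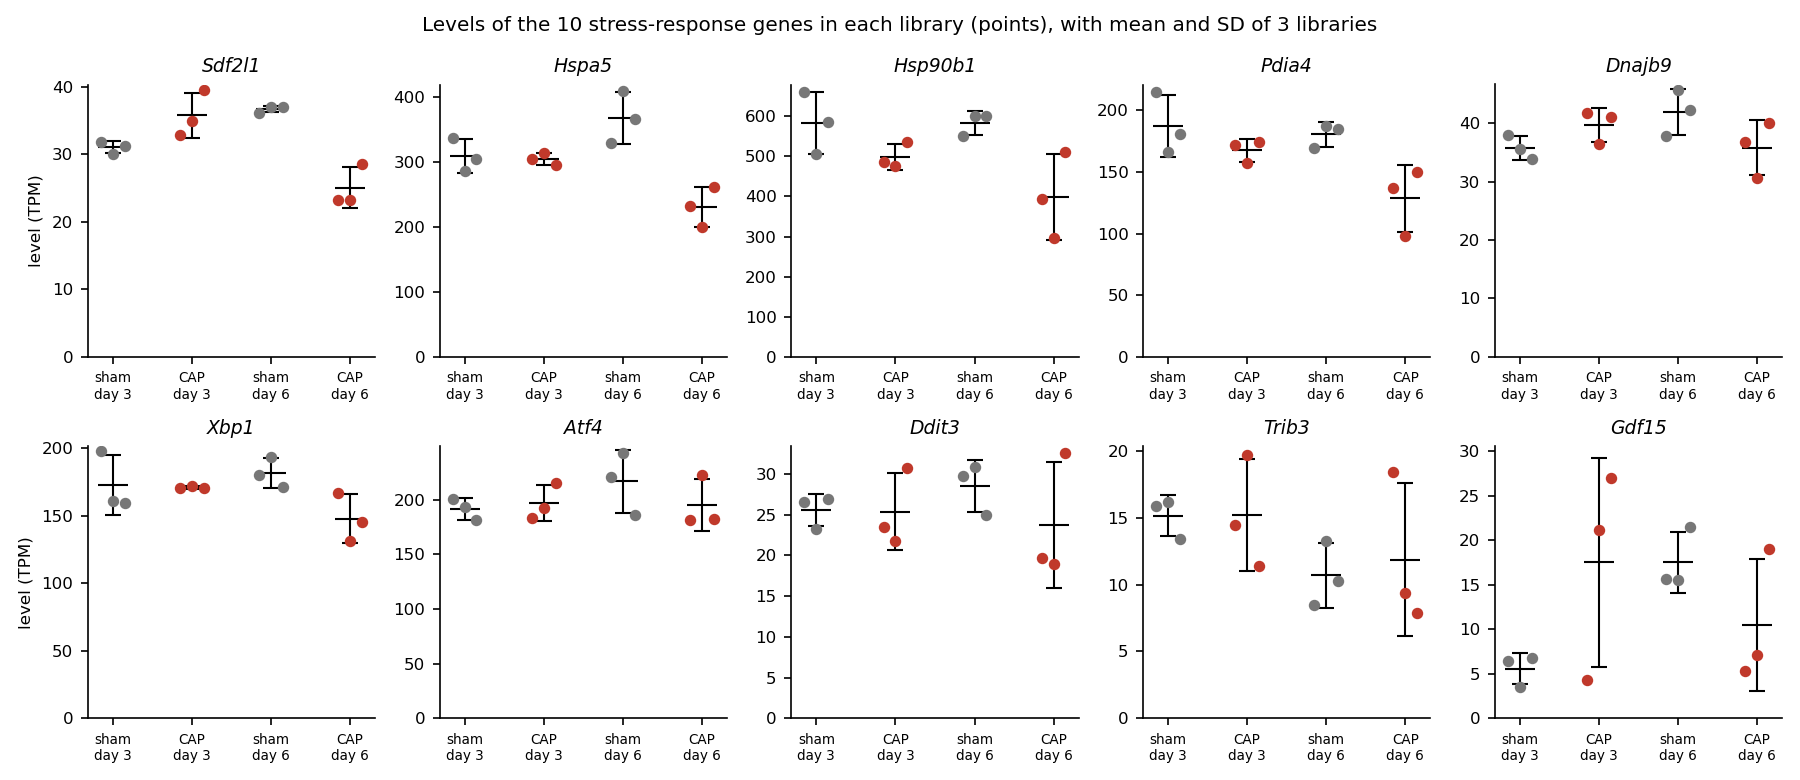
Level in TPM (y axis, from 0) of each of the 10 genes in the 12 libraries (points), by group (x axis), with the mean and SD of 3 libraries in black, sham in grey and CAP in red. Sdf2l1, Hspa5, Hsp90b1, Pdia4 and Xbp1 lie lower in all 3 CAP libraries of day 6 than in all 3 sham libraries of that day, while Gdf15 spreads widely within both CAP groups.

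The first question was whether CAP changed these genes on day 3. In limma on log2(TPM + 0.1), 0 of the 10 genes passed the threshold of an unadjusted p under 0.05 with a 2-fold difference, which 1.58% of the 18330 genes tested did. At an unadjusted p under 0.05 alone, 0 of 10 were called, against 6.60% of all genes, and at an adjusted p under 0.05, 0 of 10, against 0.0164%. The log2 differences had a median of -0.01, beside -0.05 for all genes, and adjusted p values of 0.797 to 0.996. With median-ratio scaling, 2 of 10 came below an unadjusted p of 0.05, against 6.06% of all genes under that scaling. These were Sdf2l1 (log2 difference 0.26) and Dnajb9, which encodes the J-domain co-chaperone ERdj4 of BiP (0.20).

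Sdf2l1 (ENSMUSG00000022769, chr16:17130138-17132383, - strand) encodes an ER-resident protein that works with the BiP chaperone complex. On day 3 it was at 31.8, 30.1 and 31.3 TPM in the sham libraries and at 32.9, 35.0 and 39.5 TPM in the CAP libraries. Every CAP library was above every sham library, an order seen in 2.86% of all genes. The log2 difference was 0.20 ± 0.10 (SE; limma, adjusted p = 0.797), with a 2-sided exact permutation p of 0.1, the smallest that 3 against 3 libraries allow. The chaperones Hspa5 and Hsp90b1 overlapped between the groups on this day, with log2 differences of -0.02 (95% confidence interval -0.25 to 0.21) and -0.22 (-0.52 to 0.08), and that of Hspa5 turned to 0.04 with the scaling. Erythroid markers moved on the same day, with sums of 514 to 753 TPM in sham and 2360 to 2800 TPM in CAP wounds. Fibroblast markers summed to 14800 to 23000 TPM in sham and 10400 to 15600 TPM in CAP wounds. At an unadjusted p under 0.05 in limma, 3 of 6 fibroblast markers were lower (1 with the scaling). So were 3 of 6 T and NK cell markers and 1 of 6 monocyte and macrophage markers, while 1 of 6 neutrophil markers was higher. The part of these shifts in the Sdf2l1 values was not tested.

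Gdf15 (ENSMUSG00000038508, chr8:70629393-70632456, - strand) encodes a secreted stress cytokine induced through ATF4 and CHOP. On day 3 it was at 6.41, 3.55 and 6.78 TPM in the sham libraries and at 4.36, 21.2 and 27.0 TPM in the CAP libraries. CAP libraries 2 and 3 were far above the sham range, and library 1 lay inside it. CAP wounds differed from sham by 1.32 ± 0.67 on the log2 scale (SE; limma, adjusted p = 0.799; exact permutation p = 0.3). Without CAP library 1 the difference was 2.13, which passed the threshold. The paper lists Gdf15 among the genes raised in CAP wounds of day 3, at an unadjusted p under 0.05 and a 2-fold change. It used software of the DEseq family for that call and not limma. The other genes of the ATF4 branch had log2 differences on day 3 of 0.04 for Atf4 (-0.19 to 0.27), -0.03 for Ddit3 (-0.38 to 0.32) and -0.03 for Trib3 (-0.52 to 0.46), and the differences of Ddit3 and Trib3 turned to 0.03 with the scaling.

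The second question was the effect of CAP on day 6. In limma, 5 of 10 genes were lower at an unadjusted p under 0.05, against 12.5% of all 18323 genes that were lower and 19.2% called in either direction. None was higher. The same 5 genes, Sdf2l1, Hspa5, Hsp90b1, Pdia4 and Xbp1, had all 3 CAP libraries below all 3 sham libraries, an order found in 18.0% of all genes. None of the 10 reached a 2-fold difference (3.80% of all genes passed that threshold), and none passed an adjusted p under 0.05 (0% of all genes). The adjusted p values ran from 0.205 to 0.922. The absence of adjusted calls over all genes depended on CAP replicate 3. Without that library, limma gave 519 genes higher and 911 lower at an adjusted p under 0.05. Without CAP replicate 1 or 2 it gave 0. When CAP replicate 3 was left out, the unadjusted limma p was 0.000368 for Gdf15, 0.000499 for Sdf2l1, 0.00114 for Hspa5 and 0.00182 for Hsp90b1. These p values place the named genes among the 911 lower ones, of 18148 tested. The median log2 difference of the 10 was -0.41 beside -0.12 for all genes, and -0.30 beside -0.02 with the scaling.

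Hspa5 was at 329, 409 and 366 TPM in the sham libraries of day 6 and at 232, 200 and 262 TPM in the CAP libraries. The lowest sham library lay well above the highest CAP library. The log2 difference was -0.67 ± 0.14 (SE; limma, adjusted p = 0.205; exact permutation p = 0.1). It was -0.56 with the scaling and -0.57 without CAP replicate 2, with an unadjusted p under 0.05 in both.

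For Sdf2l1, the CAP libraries of day 3 had lain above the sham libraries (log2 difference 0.20, limma adjusted p = 0.797). On day 6 it was at 36.2, 37.0 and 37.1 TPM in the sham libraries and at 23.3, 23.3 and 28.6 TPM in the CAP libraries. The sham libraries lay close together, and the CAP libraries were all lower. The log2 difference was -0.56 ± 0.11 (SE; limma, adjusted p = 0.205; exact permutation p = 0.1), -0.45 with the scaling and -0.51 without CAP replicate 2. For Hspa5 and Sdf2l1 the unadjusted p stayed under 0.05 whichever library of day 6 was left out.

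Hsp90b1 was at 550, 600 and 601 TPM in sham wounds and at 393, 296 and 510 TPM in CAP wounds. The CAP libraries spread more than the sham libraries, with replicate 3 nearest to sham. CAP and sham differed by -0.58 ± 0.20 on the log2 scale (SE; limma, adjusted p = 0.226; exact permutation p = 0.1), and by -0.38 without CAP replicate 2, the library that stood apart. The unadjusted p was no longer under 0.05 when CAP replicate 1 or either of sham replicates 2 and 3 was left out (log2 difference -0.59 and -0.56).

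Pdia4 (ENSMUSG00000025823, chr6:47796141-47813430, - strand) encodes ERp72, which forms and rearranges disulfide bonds. It was at 169, 187 and 185 TPM in sham wounds and at 137, 98.2 and 150 TPM in CAP wounds. Again CAP replicate 2 was the lowest and replicate 3 the nearest to sham. Its log2 difference was -0.51 ± 0.17 (SE; limma, adjusted p = 0.22; exact permutation p = 0.1), and -0.32 without CAP replicate 2. The unadjusted p was no longer under 0.05 without sham replicate 2 (-0.48) or sham replicate 3 (-0.49).

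Xbp1 (ENSMUSG00000020484, chr11:5520659-5525893, + strand), the transcription factor of the IRE1 branch, was at 180, 193 and 171 TPM in sham wounds and at 167, 131 and 145 TPM in CAP wounds. The highest CAP library and the lowest sham library were close. The log2 difference of -0.30 ± 0.12 (SE; limma, adjusted p = 0.246; exact permutation p = 0.1) was the smallest of the 5. It missed an unadjusted p of 0.05 with the scaling (-0.19) and without 5 of the 6 libraries in turn, all but CAP replicate 1. Dnajb9 (ENSMUSG00000014905, chr12:44205559-44210326, - strand), a target of XBP1, was at 37.9, 45.7 and 42.3 TPM in sham wounds and at 36.8, 30.7 and 40.0 TPM in CAP wounds. Its groups overlapped, and the log2 difference of -0.23 had an interval of -0.55 to 0.08.

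**Figure D2:**
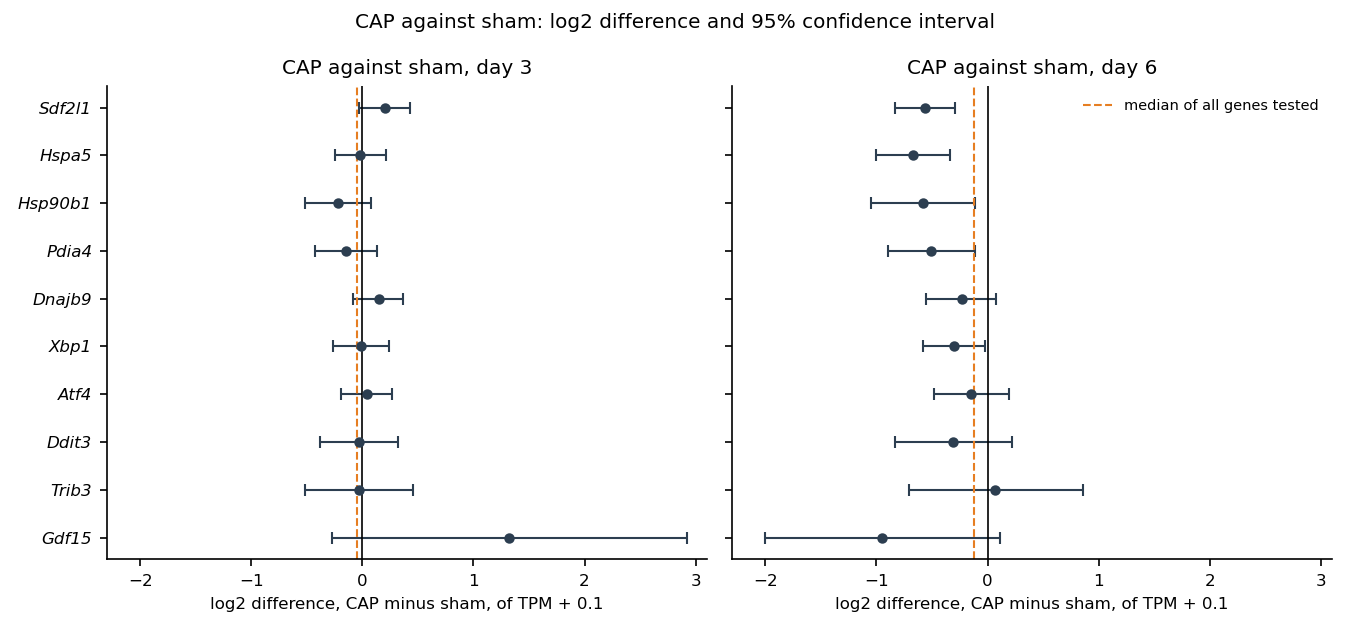
Log2 difference of TPM + 0.1 between CAP and sham (x axis) for each of the 10 genes (y axis) on day 3 (left) and day 6 (right), as points with 95% confidence intervals from limma; the dashed line is the median of all genes tested (-0.05 and -0.12). On day 6 the intervals of Sdf2l1, Hspa5, Hsp90b1, Pdia4 and Xbp1 lie below 0, and the intervals of Gdf15 are the widest on both days.

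In the ATF4 branch, none of Atf4, Ddit3, Trib3 and Gdf15 reached an unadjusted p under 0.05 in limma on day 6. Atf4 (ENSMUSG00000042406, chr15:80255184-80257541, + strand) was at 221, 243 and 186 TPM in sham wounds and at 181, 223 and 182 TPM in CAP wounds. The groups overlapped, with a log2 difference of -0.15 (-0.48 to 0.19), and of -0.04 with the scaling. Ddit3 (ENSMUSG00000025408, chr10:127290774-127296288, + strand), which encodes the pro-apoptotic factor CHOP, was at 29.8, 30.8 and 24.9 TPM in sham wounds and at 19.7, 18.9 and 32.6 TPM in CAP wounds. CAP replicates 1 and 2 were under the sham range and replicate 3 was above it, so that the log2 difference of -0.31 (-0.83 to 0.22) became -0.56 without replicate 3, with an unadjusted limma p under 0.05. Ddit3 overlaps Mars, a gene of the opposite strand. Hsp90b1 likewise overlaps the pseudogene 1810014B01Rik on the opposite strand, and Dnajb9 the microRNA gene Mir5627. How the counting treated strand is not stated.

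Trib3 (ENSMUSG00000032715, chr2:152337422-152344032, - strand), a pseudokinase induced by ATF4 and CHOP, was at 8.46, 13.3 and 10.3 TPM in sham wounds of day 6 and at 18.4, 9.34 and 7.90 TPM in CAP wounds. CAP replicate 1 was above every sham library and replicate 3 below every one. This gave a log2 difference of 0.07 (-0.71 to 0.86), and of -0.29 without CAP replicate 1. Gdf15 was at 15.6, 15.5 and 21.5 TPM in sham wounds and at 5.31, 7.10 and 19.0 TPM in CAP wounds. As with Ddit3, CAP replicates 1 and 2 were below all sham libraries and replicate 3 was not. This gave a log2 difference of -0.95 ± 0.45 (SE; limma, adjusted p = 0.292; exact permutation p = 0.3), and of -1.48 without CAP replicate 3, which passed the threshold.

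Other genes of the same pathways were counted from lists, to be read against the 12.5% of all genes that were lower and the 6.67% that were higher at an unadjusted p under 0.05. With the scaling these shares were 7.91% and 9.39%. Of 21 further ER chaperones and folding enzymes tested, 10 were lower and 0 higher in CAP wounds of day 6 at an unadjusted p under 0.05 in limma, with a median log2 difference of -0.36. With the scaling, 8 were lower, 1 was higher and the median was -0.25. The lower genes numbered 4 when sham replicate 3 was left out, and 6 when sham replicate 2 or CAP replicate 1 was. Examples, chosen after their values were seen, were Manf, a secreted ER stress protein (-0.51, limma adjusted p = 0.205), Calr, the calcium-binding lectin chaperone calreticulin (-0.48, adjusted p = 0.217), and Hyou1, the nucleotide exchange factor of BiP (-0.50, adjusted p = 0.218). None was past the 2-fold threshold.

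Of 19 genes of ER translocation and export, 12 were lower and 1 was higher, with a median of -0.32. With the scaling 8 were lower and the median was -0.21. Chosen after their values were seen, Kdelr3, which returns escaped chaperones to the ER, was at -0.82 (limma, adjusted p = 0.208), and the translocon subunit Sec61b at -0.37 (adjusted p = 0.206). Of 15 genes of ER-associated degradation, 4 were lower and 0 higher, with a median of -0.20, and with the scaling 1 was lower and 1 higher. Of 9 stress sensors and CREB3 family factors, 3 were lower and 0 higher, with a median of -0.30 (2, 0 and -0.19 with the scaling). Among these Creb3l1, a factor of collagen-secreting cells chosen after its values were seen, was at 76.1 ± 17.8 TPM in CAP and 147 ± 11.2 TPM in sham wounds (SD, n = 3). It was also lower on day 3, at 69.8 ± 9.49 TPM in CAP and 118 ± 34.3 TPM in sham wounds (log2 difference -0.73, limma adjusted p = 0.591). Its CAP effect differed between the days by -0.25 (adjusted p = 0.746). Of the 9 genes, 3 were lower on day 3 at an unadjusted p under 0.05, against 942 of 18330 genes, and 1 with the scaling.

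The eIF2 and ATF4 side of the pathway was mixed. None of 12 genes of eIF2, its kinases and its phosphatase was called in limma, and their median of -0.12 was that of all genes. Of 28 targets of ATF4 and CHOP, 7 were lower and 3 higher, with a median of -0.16. Of these only Stc2, a secreted glycoprotein, was past the 2-fold threshold (4.74 ± 2.27 TPM in CAP and 9.15 ± 1.23 TPM in sham, SD, n = 3; log2 difference -1.07, limma adjusted p = 0.236). With the scaling, 0 of the 28 were past it downward and 1 upward. Chosen here after their values were seen, Ddit4, an inhibitor of mTORC1, was lower (-0.78, limma adjusted p = 0.205), and Phgdh, the first enzyme of serine synthesis, was higher (0.94, adjusted p = 0.208). Of 11 cytosolic aminoacyl-tRNA synthetases, 2 were lower and 1 higher, and 0 and 1 with the scaling.

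As a contrast, 12 cytosolic heat shock genes had 4 members higher and 1 lower, with a median of 0.08. With the scaling 4 were higher and 0 lower, and the median was 0.19. Chosen after their values were seen, the inducible HSP70 gene Hspa1b was at 0.71 (limma, adjusted p = 0.229) and Hsp90aa1, the cytosolic relative of Hsp90b1, at -0.35 (adjusted p = 0.228), which was not called with the scaling. Reads of Hspa1b and its near-identical copy Hspa1a cannot be told apart with certainty. Both were among the 4 higher genes without the scaling (Hspa1a at 0.64, limma adjusted p = 0.229), so that the 4 may hold the same signal more than once. Of 10 mitochondrial chaperones and proteases, 1 was higher and 1 lower.

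**Figure D3:**
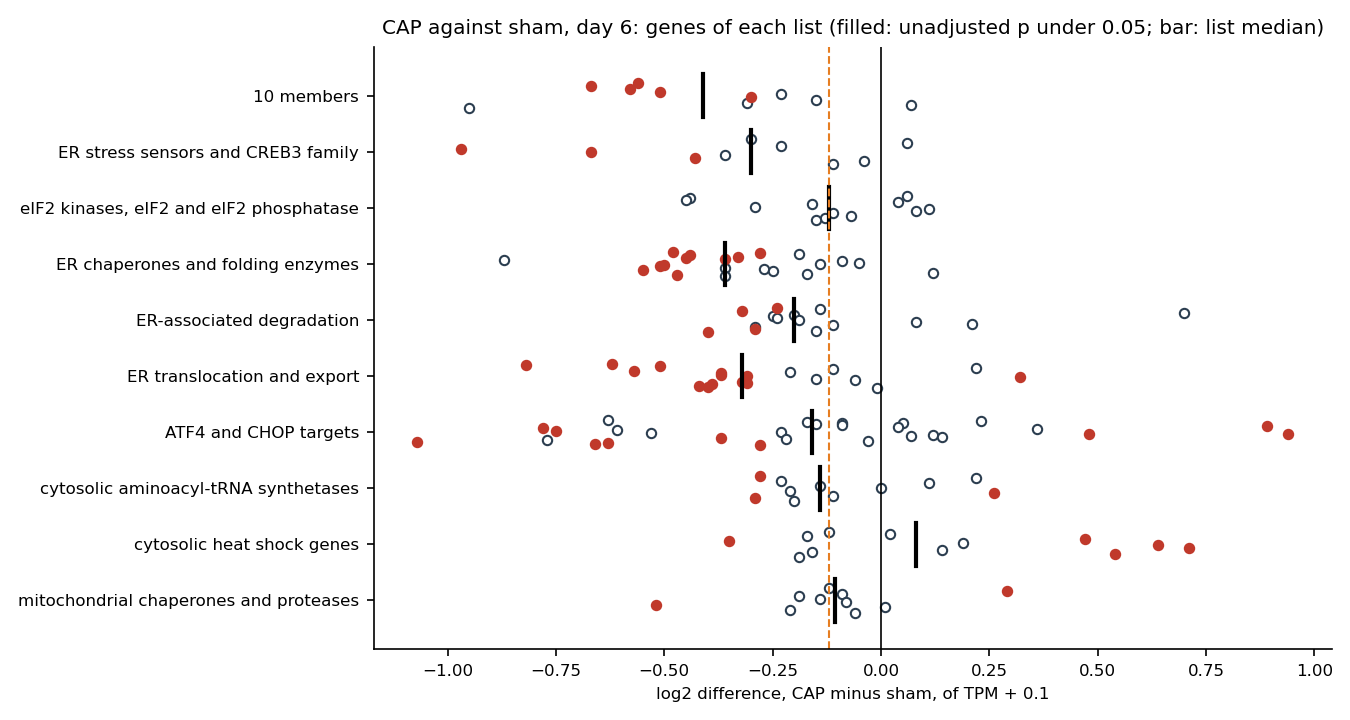
Log2 difference of TPM + 0.1 between CAP and sham on day 6 (x axis) for the genes of each list (y axis), one point per gene, filled in red where the unadjusted limma p was under 0.05; black bars are list medians and the dashed line is the median of all genes (-0.12). The ER chaperone list (median -0.36) and the translocation and export list (-0.32) sit left of that line, and the cytosolic heat shock list (0.08) does not.

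Cell type markers also differed between these groups. In whole wounds, fewer cells of a type and less RNA per cell cannot be told apart. The 6 keratinocyte markers summed to 25400 to 28500 TPM in sham wounds and 43400 to 91000 TPM in CAP wounds of day 6. The 6 fibroblast markers summed to 19600 to 26200 TPM in sham and 15700 to 21500 TPM in CAP wounds, and the 5 endothelial markers to 228 to 311 TPM and 58.0 to 184 TPM. Monocyte and macrophage markers summed to 1600 to 1910 TPM and 797 to 1680 TPM, and neutrophil markers to 1770 to 3320 TPM and 281 to 2670 TPM. The 5 adipocyte markers summed to 47.3 to 118 TPM in sham and 105 to 198 TPM in CAP wounds. The part of these shifts in the values of the 10 genes was not tested. Of 7 plasma cell markers, Jchain, Mzb1, Pou2af1, Tnfrsf17 and Derl3 held at most 0.29, 0.613, 0.597, 1.02 and 1.98 TPM in any library. Irf4 was at 4.28 to 15.8 TPM and Sdc1, which keratinocytes also express, at 299 to 501 TPM. The 4 of these markers that were tested on day 6 had a median log2 difference of 0.70, with 1 higher and 0 lower at an unadjusted p under 0.05 in limma.

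**Figure D4:**
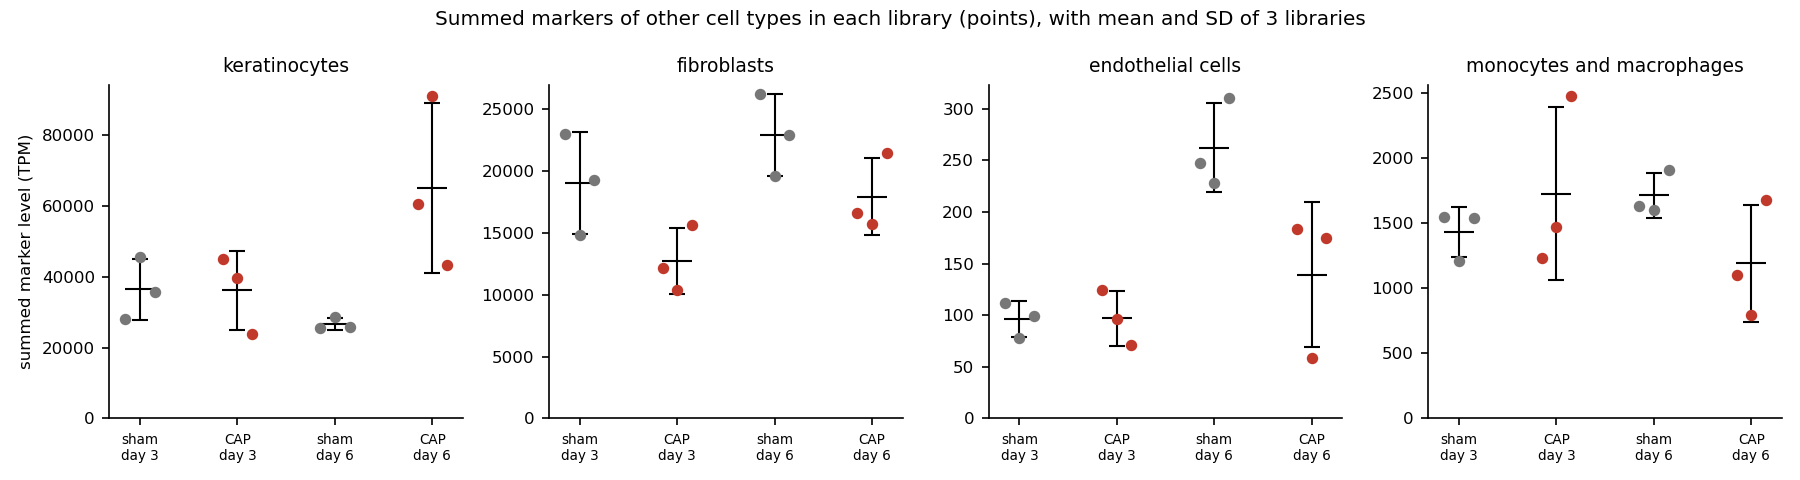
Summed TPM (y axis, from 0) of markers of keratinocytes, fibroblasts, endothelial cells, and monocytes and macrophages in each library (points) by group (x axis), with mean and SD of 3 libraries. On day 6 the keratinocyte sum is higher in all CAP libraries and the endothelial sum lower in all of them, while the fibroblast and macrophage sums overlap between the groups.

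The third question was whether the effect of CAP differed between the days, tested as an interaction over all 12 libraries. In limma, 4 of 10 genes had an unadjusted p under 0.05, against 11.3% of the 20267 genes tested, and 1 also a 2-fold difference, against 4.90%. None passed an adjusted p under 0.05 (0% of all genes), with adjusted p values of 0.428 to 0.941. The CAP effect of Sdf2l1 was lower on day 6 than on day 3 by a log2 difference of -0.76 ± 0.14 (SE; adjusted p = 0.428), and that of Hspa5 by -0.65 ± 0.17 (adjusted p = 0.428). Both kept an unadjusted p under 0.05 whichever library was left out. For Dnajb9 the difference was -0.38 ± 0.16 (adjusted p = 0.431), and its unadjusted p was no longer under 0.05 without 7 of the 12 libraries in turn, at -0.38 to -0.27.

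Gdf15 was the gene past the 2-fold threshold in this test, with -2.27 ± 0.89 (SE; limma, adjusted p = 0.428). The call was lost without any one of 6 libraries (sham day 3 replicate 2, CAP day 3 replicates 2 and 3, sham day 6 replicate 3, CAP day 6 replicates 1 and 2), where the difference was -2.11 to -1.78. The interaction of Atf4 was -0.18 (-0.56 to 0.19). Among the targets of ATF4 and CHOP, Ddit4 was past the threshold downward (-1.08, adjusted p = 0.33), as Phgdh was upward (1.24, adjusted p = 0.428). Of the 21 other ER chaperones, 7 had a lower effect on day 6 at an unadjusted p under 0.05, against 5.88% of all genes, and 0 a higher one, with a median of -0.27 beside -0.06 for all genes.

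The levels were also compared between the days within each treatment. These comparisons use the same libraries as those above. In sham wounds, Gdf15 rose from a mean of 5.58 ± 1.77 TPM on day 3 to 17.6 ± 3.45 TPM on day 6 (SD, n = 3). The ranges did not overlap, and the log2 difference was 1.67 ± 0.27 (SE; limma, adjusted p = 0.0308; exact permutation p = 0.1). It stayed between 1.38 and 1.84 whichever library was left out. The adjusted p was not under 0.05 in 6 of 15 settings, that is without sham day 3 replicate 3 (0.0883), without sham day 6 replicate 1, 2 or 3 (0.0683, 0.0657 and 0.107), with no filter (0.0829) and in the joint fit of all 12 libraries (0.319). Gdf15 was the only one of the 10 past the 2-fold threshold (3.75% of 18368 genes) and past an adjusted p under 0.05 (2.29%). Markers of other cells moved between the same groups. Endothelial sums went from 77.7 to 112 TPM on day 3 to 228 to 311 TPM on day 6, erythroid sums from 514 to 753 TPM to 2110 to 5620 TPM, and wound-edge keratinocyte sums from 24200 to 27800 TPM to 9500 to 15300 TPM. All 5 endothelial and all 5 erythroid markers were higher at an adjusted p under 0.05 in limma, and all 6 skeletal muscle markers were lower at an unadjusted p under 0.05. Their part in the Gdf15 values was not tested.

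In all, 3 of 10 genes had an unadjusted p under 0.05 in sham wounds, against 16.0% of all genes. Besides Gdf15, these were Sdf2l1, higher on day 6 by 0.24 ± 0.08 (limma, adjusted p = 0.175), and Trib3, lower with a log2 difference of -0.52 ± 0.18 (adjusted p = 0.216). Trib3 was no longer called without sham day 3 replicate 1 or 2 or sham day 6 replicate 1 or 3, at -0.50 to -0.36. The chaperones Hsp90b1 and Pdia4 had means of 584 and 583 TPM and of 187 and 180 TPM on day 3 and day 6, with overlapping ranges. Among the targets of ATF4 and CHOP, 5 of 29 were higher at an unadjusted p under 0.05, against 8.05% of all genes, and 0 lower. Ddit4, chosen here after its values were seen, was at 63.4 ± 4.99 TPM on day 3 and 102 ± 2.89 TPM on day 6 (SD, n = 3; limma, adjusted p = 0.0154). Its adjusted p was not under 0.05 without sham day 3 replicate 2 or 3 (0.0516 and 0.0913), without sham day 6 replicate 3 (0.0542) and in the joint fit (0.107).

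In CAP wounds, all 10 genes had log2 differences below 0 from day 3 to day 6, with a median of -0.38 beside -0.05 for all genes, and that of Atf4 (-0.01) turned to 0.03 with the scaling. In limma, 2 of 10 had an unadjusted p under 0.05, against 11.6% of 18202 genes, 0 passed the 2-fold threshold (2.79%) and 0 an adjusted p under 0.05 (0.00549%). Sdf2l1 was lower, with a log2 difference of -0.52 ± 0.13 (adjusted p = 0.295), as was Hspa5 with -0.41 ± 0.12 (adjusted p = 0.346), the latter no longer called without CAP day 3 replicate 2 (-0.38). Pdia4 stood at the border with -0.40 ± 0.17 (adjusted p = 0.432), and was called with the scaling (-0.36). Gdf15 went from 17.5 ± 11.7 TPM to 10.5 ± 7.46 TPM (SD, n = 3), a difference within the spread of the libraries (limma, adjusted p = 0.777). In these wounds 3 of 4 wound-edge keratinocyte markers and 3 of 6 neutrophil markers were lower on day 6 at an unadjusted p under 0.05 in limma. So were 2 of 6 skeletal muscle markers and 1 of 6 monocyte and macrophage markers. By the same measure, 4 of 6 T and NK cell, 3 of 6 fibroblast, 2 of 6 keratinocyte and 1 of 5 adipocyte markers were higher. The part of these shifts was not tested.

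Over the 12 libraries, the chaperones varied together and apart from Atf4, as a description of libraries that share group, tissue makeup and scaling. On log2(TPM + 0.1), Pearson's r was 0.97 between Hsp90b1 and Pdia4, 0.88 between Hspa5 and Hsp90b1, and 0.85 between Hspa5 and Sdf2l1. It was 0.21 between Hspa5 and Atf4. After each group's mean was removed, r was 0.95 for Hsp90b1 and Pdia4, 0.83 for Hspa5 and Hsp90b1, 0.50 for Hspa5 and Sdf2l1, and -0.20 for Hspa5 and Atf4. Ddit3, also of the ATF4 branch, did vary with the chaperones. Its r was 0.72 with Hsp90b1, 0.60 with Pdia4 and 0.58 with Hspa5, and 0.77, 0.60 and 0.50 within the groups. With Sdf2l1 it was 0.64, and 0.89 within the groups. Trib3 had r = 0.11 with Hspa5, and 0.23 within the groups. Sdf2l1 and Gdf15, which differ in role, had r = 0.85 within the groups.

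Among 16169 genes that averaged 1 TPM or more, the 5 genes most like Hspa5 were Wnt5b (r = 0.973), Calr (0.971), Srprb (0.961), Gm30970 (0.951) and Cdk17 (0.945). Calr is an ER chaperone, and Srprb is the membrane subunit of the receptor that brings ribosomes to the ER. Those most like Atf4 were Zbtb48, Qtrt2, Gm14730, Csrnp1 and Eif1, at r = 0.899 to 0.851. Those most like Gdf15 were Creg1 (0.945), Wfdc17 (0.94), Dtx4 (0.935), Galc (0.932) and Gpnmb (0.931), of which Galc and Gpnmb encode a lysosomal enzyme and a glycoprotein of macrophages.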

How the data were processed

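RNA from cutaneous wounds was prepared with the SureSelect XT HS2 mRNA kit. According to the submitters' processing notes and the paper, reads were converted with bcl2fastq, trimmed with Trimmomatic 0.36 and placed on mm10, and StringTie gave the gene-level TPM that the authors deposited, 1 table per library. No source used here names the aligner, annotation release or strand setting. The tables hold 0 other columns of per-sample values. Each column sums to between 1000003.08 and 1000003.23, with 0.0001 in place of 0. TPM carries no depth, so precision rests on 3 libraries per group.

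Genes averaging 0.3 TPM or more in both groups (for the interaction, in at least 1 of 4 groups) were tested on log2(TPM + 0.1) with limma 3.58.1 (R 4.3.3, intensity trend), adjusted by Benjamini-Hochberg over all genes tested. A fold change on this scale understates that of low genes. The fit was checked on simulated data with each gene drawn independently. That check does not cover a library that stands apart or a shift shared by all genes. Single genes also had a 2-sided exact permutation test, whose smallest p is 0.1. The threshold was an unadjusted p under 0.05 with at least a 2-fold difference. Named were the 10 genes, up to 3 genes per list, comparison and direction past the threshold, the 5 genes most like Hspa5, Atf4 and Gdf15, and markers. Others are marked as chosen after their values were seen. The 10 genes and the lists were chosen with earlier results of these data known.

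Alternatives were pseudocounts of 1 and 0.01 TPM, no filter, a filter of 0.3 TPM in every library, scaling by median ratio or by quantiles, a replicate block, a joint fit of 12 libraries, and leaving out each library. Counts at p under 0.05 and of the ER lists were added as results after the data were seen. Promoters came from RefSeq (GRCm38.p6), and coordinates from the tables, which for the 10 genes were those of GENCODE M21. Of each gene's 31-base transcript stretches, at most 10.8% (Dnajb9, with the pseudogene Gm6568) were shared with another gene.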

Additional observations from a re-analysis of the deposited data

Results flagged for a closer look

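Sdf2l1 stood out because all 3 CAP libraries were above all 3 sham libraries on day 3 and below all of them on day 6. The CAP effect on day 6 minus that on day 3 was -0.76 on the log2 scale (SE 0.14; limma interaction, adjusted p = 0.428), and -0.71 with median-ratio scaling. Leaving out each library in turn gave -0.86 to -0.69. It did not pass the correction over all genes. No group was tested for single outlying libraries, since each holds 3.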

How the results depend on the processing

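Of 750 repeats of single-gene values under the alternatives, 649 kept direction and side of an unadjusted p of 0.05, 33 lost the call, 31 gained it and 37 changed sign. All 37 came from 11 values of at most 0.125 in size and none had p under 0.05. With median-ratio scaling, the log2 difference between CAP and sham on day 3 turned to 0.04 for Hspa5, 0.049 for Xbp1, 0.03 for Ddit3 and 0.031 for Trib3, and with quantile normalization to 0.008, 0.021, 0.038 and 0.045. From day 3 to day 6, these scalings gave -0.001 and -0.028 for Hsp90b1 in sham and 0.031 and 0.033 for Atf4 in CAP wounds. Leaving out each library gave, on day 3, -0.073 to 0.046 for Hspa5, -0.064 to 0.093 for Xbp1, -0.028 to 0.088 for Atf4, -0.174 to 0.074 for Ddit3 and -0.231 to 0.164 for Trib3. It gave -0.289 to 0.316 for Trib3 on day 6, -0.093 to 0.099 for Hsp90b1 and -0.13 to 0.057 for Pdia4 over time in sham, -0.112 to 0.053 for Atf4 and -0.376 to 0.023 for Ddit3 over time in CAP wounds, and -0.262 to 0.343 for Trib3 in the interaction.

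The number of the 10 genes past the threshold, leaving out each library, was 0 to 1 on day 3, on day 6, over time in CAP wounds and in the interaction. It was 1 throughout over time in sham wounds. The number at an unadjusted p under 0.05 was 0 to 2 on day 3, 2 to 6 on day 6 (2 without sham replicate 2 or 3), 1 to 4 over time in CAP wounds and 2 to 7 in the interaction. On day 3 it was 2 with median-ratio scaling and 1 with quantile normalization. The lower ER chaperones of day 6 numbered 4 to 14. The number of genes of translocation and export stayed within 1.5 times of 12 in every setting, being 8 at the lowest. The cause of these changes was not tested.

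With the replicate number as a block, the numbers at an unadjusted p under 0.05 were 0 on day 3, 5 on day 6, 3 over time in sham and 3 over time in CAP wounds, and 3 in the interaction, and 11 ER chaperones were lower. On day 6 the block brought Gdf15 (-0.945) under that p and took Xbp1 (-0.3) over it. Same-numbered libraries did not deviate together in every pair (r = -0.18 to 0.4 over 16400 genes). With 3 libraries per group, these values cannot decide whether same-numbered libraries shared a mouse or a batch. No counting error could be given, as TPM holds no depth.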
